A study of Mus musculus with 3 samples.

Results

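The 254 promoter windows of the RUNX3-FLAG library are described here. They were chosen by position: of the 1000 windows in the main peak list, those whose centre lay within 500 bp of the nearest transcription start site (TSS) in the deposited table of neighbouring genes (25.4%, Wilson 95% interval 22.8 to 28.2). The ChIP-seq data, which locate DNA bound by a protein, came from superficial zone (SFZ) chondrocytes, the cells of the surface layer of articular cartilage, from mice labelled C57BL/6, taken within days of birth by the study's protocol for these cells. All 3 libraries came from cells that had received, by lipofection, a vector for 3xFLAG-tagged Runx3. They were RUNX3-FLAG (antibody against FLAG), IgG (nonspecific antibody) and input (no antibody), with 1 library each, so no value has a replicate error, and intervals and tests below are over windows. The tagged protein was supplied by the vector, so the windows report the binding of introduced Runx3, and peak positions cannot show whether the cells carried chondrocyte markers. Depth and peak heights were unknown, and the order of the windows was given only by their rank, with 1 as the best.

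Runx proteins bind DNA through the Runt domain, together with the partner Cbfb, at a short site written TG(T/C)GG(T/C). The site is read here as the letters TGTGGT and TGTGGC, and with C at the third place as TGCGGT and TGCGGC, on either strand. Many mammalian promoters are rich in the dinucleotide CpG, are active in most cell types and carry sites for ETS, SP/KLF, NFY and CREB factors. ETS factors such as Ets1 are known partners of Runx proteins at shared sites.

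The sequences of the best ranked promoter windows outside annotated exons show both kinds of window, with and without a Runx site. All are from the plus strand of mm9, and capitals mark the Runx letters on either strand in the following 4 windows with a site.
Pcyt1a, rank 6, chr16:32430889-32430989: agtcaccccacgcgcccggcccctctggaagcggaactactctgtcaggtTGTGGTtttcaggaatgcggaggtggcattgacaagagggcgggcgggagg
Adnp, rank 40, chr2:168032891-168032991: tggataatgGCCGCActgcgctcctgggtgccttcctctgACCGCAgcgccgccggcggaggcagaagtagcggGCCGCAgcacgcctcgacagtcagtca
Iqgap3, rank 48, chr3:87885853-87885953: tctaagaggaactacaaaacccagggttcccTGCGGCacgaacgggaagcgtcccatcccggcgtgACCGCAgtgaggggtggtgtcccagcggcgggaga
Trap1, rank 56, chr16:4077830-4077930: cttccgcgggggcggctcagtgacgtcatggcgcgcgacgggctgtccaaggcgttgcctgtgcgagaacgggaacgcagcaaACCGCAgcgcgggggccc

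The window at Pcyt1a, which encodes the enzyme that limits phosphatidylcholine synthesis, held the form without CpG near its middle. Those at Adnp, Iqgap3 and Trap1 held forms with CpG, and Adnp had 3 of them. In the next 3 windows no Runx letters were found, and capitals mark matches to the ETS, GC box or short CRE letters given further on.
Gabpb1, rank 19, chr2:126501369-126501469: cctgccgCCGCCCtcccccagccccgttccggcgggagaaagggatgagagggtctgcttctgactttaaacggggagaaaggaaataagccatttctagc
Calm2, rank 29, chr17:87846353-87846453: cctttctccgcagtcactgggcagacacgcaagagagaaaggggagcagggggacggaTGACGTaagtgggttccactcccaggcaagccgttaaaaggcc
Hdx, rank 33, chrX:108810694-108810794: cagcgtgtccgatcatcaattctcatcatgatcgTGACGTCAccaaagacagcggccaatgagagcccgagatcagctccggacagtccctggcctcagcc

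Not every best ranked window without a site is shown, and 71 of the 117 promoter windows without Runx letters held neither ETS nor GC box letters. Of those shown, the window at Calm2, a calmodulin gene, held the short CRE letters, that at Hdx, a homeobox gene, the full CRE, which includes them, and that at Gabpb1 a GC box.

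The promoter windows lay close to the TSS and mostly upstream of it. By the deposited sign, 183 of 254 were upstream (72.05%, 66.2 to 77.2) and 71 downstream. The median position was -75.5 bp (negative upstream), with quartiles at -159 and 15 bp. Within 200 bp on either side lay 193 windows (76.0%), and 139 (54.7%) lay in the 200 bp just upstream. Position was what the choice rested on, so these counts are a description. The side depended on the annotation. With GENCODE gene starts 269 windows qualified, 232 of them the same, and 59.9% of the 269 were upstream. The deposited tables placed 56 of the 71 downstream windows in the 5′ untranslated region, 9 in an exon and 6 in an intron. Just inside the limit were windows at Adamtsl4 (497 bp upstream, rank 901), Runx1 (498 bp downstream, rank 399) and Sertad1 (499 bp downstream, rank 826). Just outside were those at Dscr3 (503 bp), Plec1 (505 bp) and Hmg20b (512 bp).

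**Figure D1:**
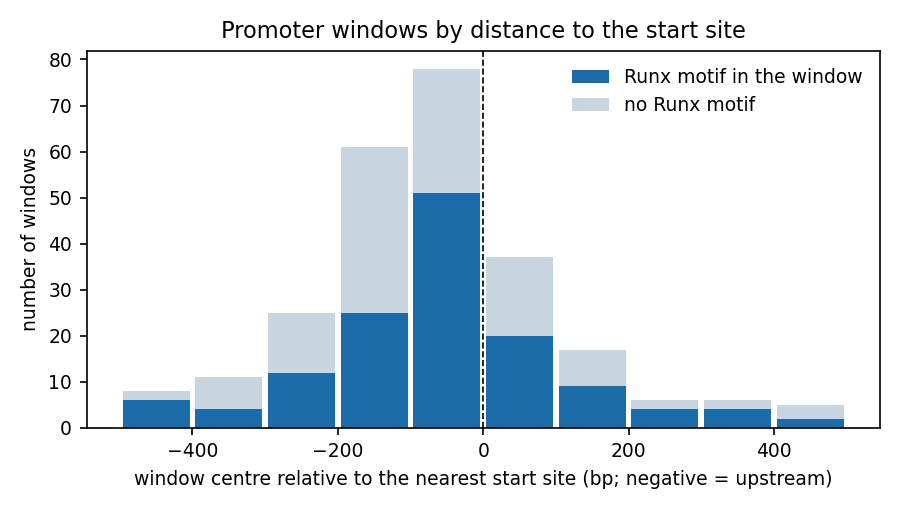
Number of promoter windows (y axis) in bins of 100 bp by the position of the window centre relative to the nearest TSS in bp (x axis, negative upstream), split into windows with and without the Runx motif. The tallest bin, 100 bp upstream to the TSS, held 78 windows, of which 51 had the motif.

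The windows fell at the start sites of 273 genes. In 234 windows 1 gene had its TSS within the limit, and in the other 20 there were 2. The gene Utp3, whose product acts in making the small ribosomal subunit, had 2 windows, 345 bp upstream (rank 473) and 71 bp upstream (rank 730), and both were missing from the other peak list described below. For 114 windows (44.9%, 38.9 to 51.03) the gene deposited as nearest to the window was not the gene with the nearest TSS. Among the other windows this was so for 264 of 746 (35.4%), and the difference was not tested. The window of rank 6, for example, lay 143 bp upstream of Pcyt1a and was deposited with Tctex1d2. Genes below are therefore those with a TSS within 500 bp.

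Bidirectional promoters, where genes on opposite strands start near each other, accounted for 18 windows (7.09%, 4.53 to 10.9). In 17 of them the genes ran away from each other, with 53 to 572 bp between their TSSs. In the other, at Yipf2 and 1810026J23Rik (rank 57), the genes overlapped at their starts. The other best ranked pairs were BC038286 with 1810031K17Rik (rank 38), 1110001A07Rik with Prr11 (rank 170), D2Ertd391e with D230010M03Rik (rank 178), Itgb3bp with Efcab7 (rank 210) and Myo9b with 2410004L22Rik (rank 244). Itgb3bp encodes a centromere protein and Myo9b an unconventional myosin. The window at Ptcd2 and Mrps27 (rank 293), the latter a protein of the mitochondrial ribosome, lay between the genes, 50 bp upstream of Ptcd2 and 58 bp upstream of Mrps27. With GENCODE genes 27 of 269 windows (10.04%, 6.99 to 14.2) were bidirectional, while 4.08% of all positions within 500 bp of a GENCODE TSS were within 500 bp of TSSs on both strands. This is a description, and no test was made of it. The Runx motif was present in 9 of the 18 bidirectional windows and 128 of the 236 others (54.2%), with an odds ratio of 0.844 (0.323 to 2.20, adjusted p = 0.889 over 4 splits, Fisher's exact test).

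The best ranked of the promoter windows lay at genes of varied function. Pcyt1a had its window 143 bp upstream (rank 6). Among the next was Myl6, a non-muscle myosin light chain, with a window upstream (rank 17). Gabpb1, whose product pairs with an ETS protein in the factor GABP, had its window 197 bp upstream (rank 19). Sirt6, a deacetylase of histones, had its window 35 bp downstream (rank 24). Calm2 (220.0 bp upstream, rank 29), Hdx (56 bp upstream, rank 33) and Alkbh3, a repair enzyme for alkylated DNA (120.0 bp upstream, rank 35), followed. The last of the best 12 were BC038286 (12 bp upstream, rank 38), Adnp (379 bp upstream, rank 40) and Ndufs7, a subunit of respiratory complex I (62 bp upstream, rank 44). Of the 12 best ranked windows, those at Pcyt1a, Sirt6, BC038286, Adnp and Ndufs7 held the Runx motif.

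Promoter windows did not stand out by rank within the list. Of them 87 (34.3%) were in the third of the list with the best ranks, against 246 of the 746 other windows (33.0%), with an odds ratio of 1.06 (0.784 to 1.43, adjusted p = 0.798 over 3 comparisons, Fisher's exact test). They made up 33 of the top 100 and 1 of the top 10, and ranged from rank 6 to rank 997 with a median of 474.5, against 505.5 for the others.

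A second list of 1000 windows names IgG beside RUNX3-FLAG, and what it was called against is not stated. It was made from the same library, so a shared window is not independent evidence. Of the promoter windows 233 (91.7%, 87.7 to 94.5) overlapped a window there by at least 1 bp, against 679 of the 746 others (91.0%) and 91.2% of all 1000, and the odds ratio was 1.09 (0.656 to 1.83, adjusted p = 0.798, Fisher's exact test). Ranks in the 2 lists differed by a median of 6, and 18 windows had the same rank. The largest difference was at Loxl1, a lysyl oxidase family gene that helps to crosslink elastin and collagen, with rank 981 in the main list and 464 in the IgG-named list, and there the paired windows shared only 13 bp. None of the 21 windows without a partner was in the top 100, and the best ranked were those at Slc25a4 (rank 204), the mitochondrial ADP/ATP carrier, Wdr36 (rank 212) and 8030462N17Rik (rank 267), chosen for naming after their ranks were seen. The IgG-named list had 263 promoter windows of its own, of which 30 had no partner in the main list.

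The Runx motif was found less often in promoter windows than in the others, yet far more often than beside them. It was present in 137 of 254 promoter windows (53.9%, 47.8 to 60.0) and 524 of 746 others (70.2%, 66.9 to 73.4), with 66.1% over all 1000. The odds ratio was 0.496 (0.370 to 0.665, adjusted p = 1.12e-05, Fisher's exact test). The share in windows 0.5 to 5 kb from a TSS was 62.2% (69 of 111), between these values. In windows of the same length moved 500 bp from the promoter windows, the motif was present in 39 (15.4%) on the left and 46 (18.1%) on the right. Only the central window held it in 117 pairs against 19 for the reverse on the left (exact McNemar test, adjusted p = 4.14e-18), and the counts to the right were 114 and 23 (exact McNemar test, adjusted p = 1.09e-15). Among all 22355 GENCODE promoters, at the distances of the promoter windows, 18.3% of windows of that length held it. Of the 137 windows, 99 held 1 match, 34 held 2 and 4 held 3. The match nearest to the window centre was a median of 17.5 bp away.

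**Figure D2:**
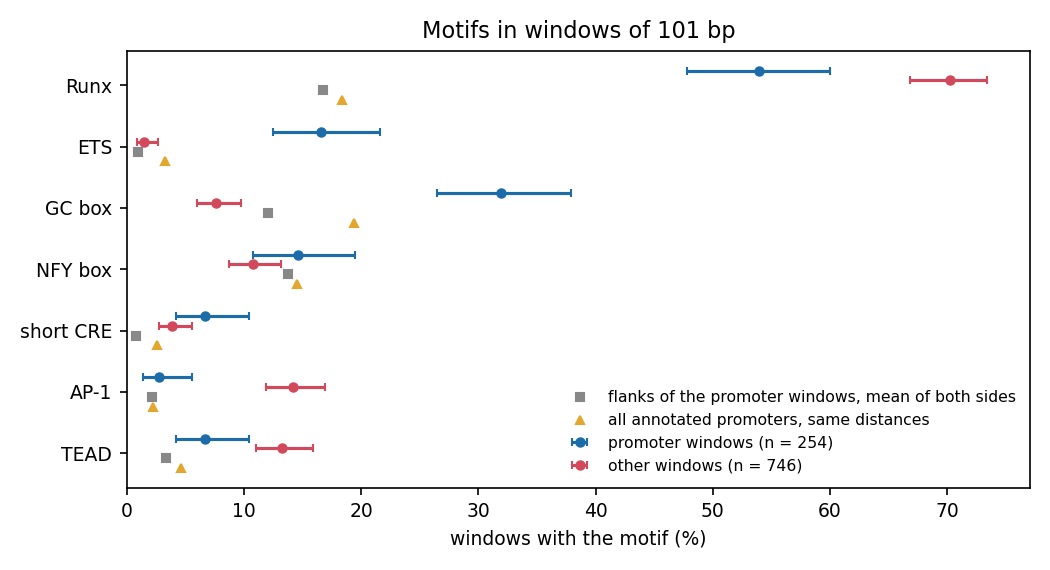
Share of windows with each motif in percent (x axis) for promoter windows and other windows (points with Wilson 95% intervals), for the windows 500 bp to each side of the promoter windows (squares, mean of both sides) and for all annotated promoters at the same distances (triangles). Runx stood at 53.9% in promoter windows and 70.2% in the others, and ETS at 16.5% and 1.47%.

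The form of the Runx site differed between the groups. TGTGGT was present in 38 promoter windows (15.0%, 11.1 to 19.9) and 337 others (45.2%, 41.6 to 48.8), an odds ratio of 0.214 (adjusted p = 1.57e-18, Fisher's exact test over 4 forms). TGTGGC was also less frequent, at 7.87% against 18.2% (odds ratio 0.383, adjusted p = 7.12e-05 by the same exact test). The forms with CpG went the other way. TGCGGT was present in 64 promoter windows (25.2%, 20.3 to 30.9) and 112 others (15.0%, 12.6 to 17.8), an odds ratio of 1.91 (adjusted p = 0.000389, exact test). TGCGGC was at 18.1% against 5.90% (odds ratio 3.53, adjusted p = 7.71e-08, exact test). Of the promoter windows with a Runx site, 71.5% (63.5 to 78.4) held a form with CpG, and of the others with a site 28.4% (24.7 to 32.4). These comparisons of forms were chosen after the windows had been seen. TGCGGT was also the form that exceeded its surroundings most, at 0.787% and 3.54% in the left and right flank (adjusted p = 5.64e-17 and 5.98e-12, exact McNemar test) and 2.49% over all promoters, a ratio of 10.1. The set of all promoters was not matched for composition and was poorer in CpG, as given below. Nor were the flanks at 500 bp matched for composition, and single forms were not compared with flanks at 200 bp. TGTGGC did not exceed the flanks past the threshold (5.12% and 6.30%, adjusted p = 0.321 and 0.597 by the exact McNemar test). Among windows with a CpG ratio of at least 0.6 in both groups (defined below), the forms with CpG were present in 41.7% of promoter windows and 46.9% of the others, with an odds ratio of 0.809 (adjusted p = 0.332, Fisher's exact test), so the direction turned.

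The base composition differed in the same way. G and C made up a median of 65.3% of the bases in promoter windows (quartiles 59.4 and 70.3) and 51.5% in the others (45.5 and 58.4), against 55.4% over 2236 annotated promoters at a sample of the same distances. The CpG ratio, the observed number of CpG divided by the number expected from the C and G content, had a median of 0.902 in promoter windows, 0.289 in the others and 0.476 in the annotated promoters. A ratio of at least 0.6 was found in 216 promoter windows (85.0%) and 145 others (19.4%). A CpG inside a motif counts in this ratio. Promoter windows with and without the Runx motif had the same median G and C (65.3%). Restricted to a ratio of at least 0.6 in both groups, the Runx motif was present in 54.6% of promoter windows and 64.1% of the others, and the odds ratio of 0.673 no longer passed the threshold (adjusted p = 0.245, Fisher's exact test). The part of composition in the difference was not tested further.

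**Figure D3:**
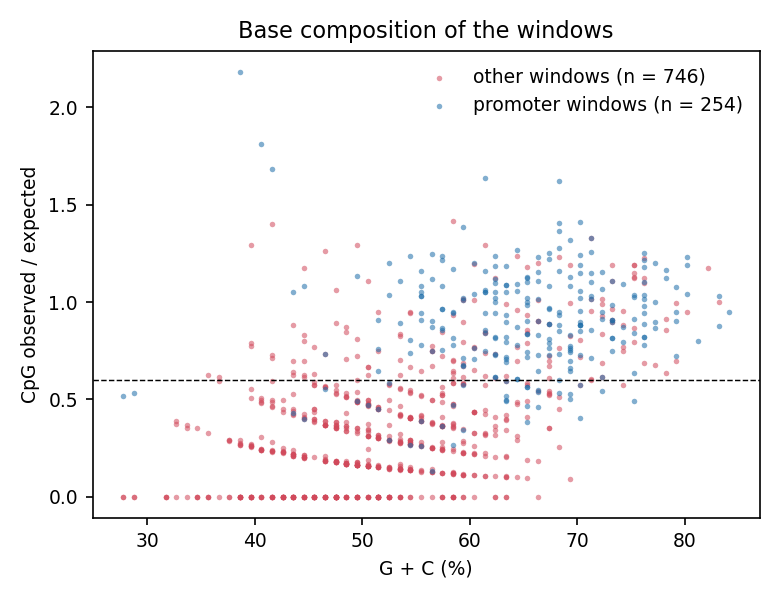
CpG ratio (y axis, observed over expected) against G and C content in percent (x axis) of each window, for 254 promoter windows and 746 others. The dashed line marks a ratio of 0.6, above which lay 216 promoter windows and 145 others.

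ETS letters (CCGGAAG) were the feature that had the largest odds ratio between promoter and other windows among the 13 motifs sought beside Runx. They were present in 42 promoter windows (16.5%, 12.5 to 21.6) and 11 others (1.47%), an odds ratio of 13.2 (6.70 to 26.2, adjusted p = 2.23e-16 over 13 motifs, Fisher's exact test). In the flanks at 500 bp they were present in 1.18% on the left and 0.787% on the right (adjusted p = 1.13e-08 and 5.08e-10, exact McNemar test), and over all promoters at the same distances in 3.22%, a ratio of 5.14. Those promoters were not matched for CpG, which the ETS letters contain. The excess passed the threshold also against flanks at 200 bp, where the shares were 2.76% and 4.33%, and among windows with a CpG ratio of at least 0.6 (18.5% against 5.52%, odds ratio 3.89, adjusted p = 0.00108 by Fisher's exact test). The ETS match nearest to the centre was a median of 14 bp away, and 26 of the 42 windows had a match within 20 bp of it. Near the centre ETS matches occurred at 2.43 per kb against 0.177 per kb from 400 bp on, and Runx matches at 8.53 against 2.03 per kb.

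**Figure D4:**
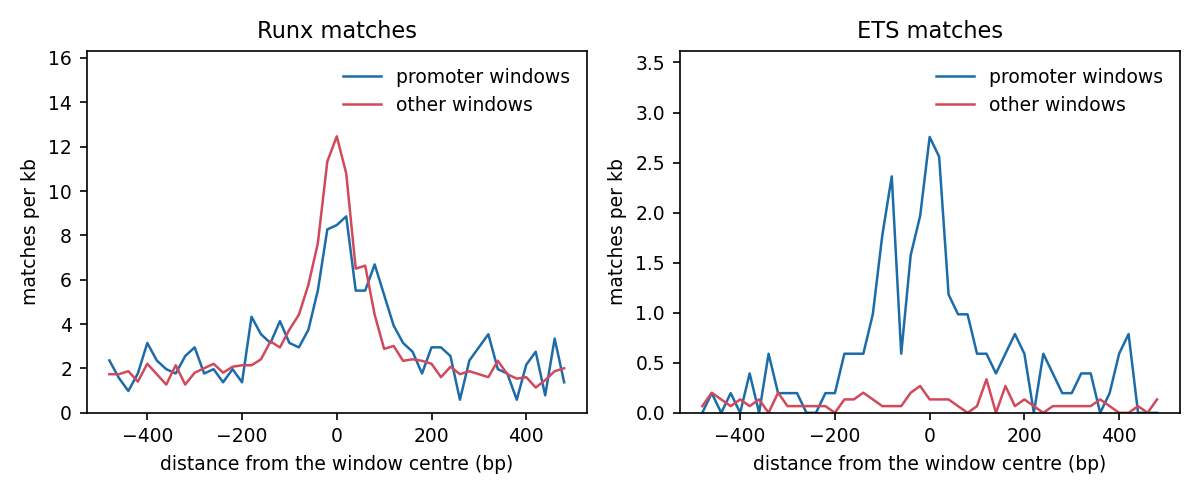
Matches per kb (y axis) of the Runx motif (left) and the ETS letters (right) in bins of 20 bp by distance from the window centre in bp (x axis), for promoter windows and other windows. In promoter windows ETS matches averaged 2.43 per kb in the central 3 bins and 0.177 per kb from 400 bp on.

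ETS and Runx letters occurred in the same promoter window in 23 cases (9.06%), and in 7 of the 746 others (0.938%). ETS letters were present in similar shares of promoter windows with the Runx motif (16.8%, 11.5 to 23.9) and without it (16.2%, 10.6 to 23.98). The bases between both sites were a median of 21 in number, and in 6 of the 23 windows there were 10 or fewer, at Sh3gl1 (2 bases), 2610036L11Rik (3), Eif3g (7), Polr2j (8) and Zfp623 (10) and, with an overlap of 1 base, at Nol6. Matches of either kind lay near the window centre, as given above. The spacing was not set against an expected one and was not tested. Of the windows outside exons, those with the fewest bases between the sites are shown. The sites were 3 bases apart at 2610036L11Rik, but 34 at Ptpn12 and 39 at Dhrs7b, both above the median. Runx and ETS letters are in capitals.
2610036L11Rik, rank 168, chr10:29920353-29920453: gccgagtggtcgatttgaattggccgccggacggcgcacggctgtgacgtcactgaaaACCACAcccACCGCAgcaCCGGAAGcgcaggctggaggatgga
Ptpn12, rank 624, chr5:20562015-20562115: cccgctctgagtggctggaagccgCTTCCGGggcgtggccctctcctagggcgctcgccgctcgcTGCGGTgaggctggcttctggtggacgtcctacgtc
Dhrs7b, rank 557, chr11:60643996-60644096: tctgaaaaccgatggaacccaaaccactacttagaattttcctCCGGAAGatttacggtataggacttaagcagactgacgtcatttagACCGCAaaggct

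The 3 best ranked windows outside exons that held ETS letters and no Runx letters were at Prpf18, a splicing factor, Nfat5, a transcription factor of the response to osmotic stress, and Rnf44. ETS letters are in capitals.
Prpf18, rank 125, chr2:4573167-4573267: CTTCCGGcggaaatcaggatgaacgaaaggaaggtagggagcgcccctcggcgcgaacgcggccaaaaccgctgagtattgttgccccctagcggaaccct
Nfat5, rank 405, chr8:109817254-109817354: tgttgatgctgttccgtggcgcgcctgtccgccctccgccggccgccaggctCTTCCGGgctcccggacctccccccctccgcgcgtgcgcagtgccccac
Rnf44, rank 663, chr13:54795384-54795484: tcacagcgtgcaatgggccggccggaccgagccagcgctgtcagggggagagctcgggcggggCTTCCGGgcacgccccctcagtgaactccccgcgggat

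Of the other motifs sought, the GC box bound by SP/KLF factors (GGGCGG) was present in 81 promoter windows (31.9%, 26.5 to 37.9) and 57 others (7.64%), an odds ratio of 5.66 (adjusted p = 3.04e-18, Fisher's exact test), against 19.4% over all promoters. It exceeded the flanks at 500 bp (12.2% and 11.8%, adjusted p = 7.39e-07 and 1.89e-07, exact McNemar test) but not those at 200 bp (27.2% and 24.4%, adjusted p = 0.654 and 0.228). Within windows of a CpG ratio of at least 0.6 the odds ratio was 1.67 (adjusted p = 0.117, Fisher's exact test). The short CRE letters (TGACGT), which are part of the CREB site, were present in 17 promoter windows (6.69%) and in 0.787% of either flank (adjusted p = 0.00316, exact McNemar test). At 200 bp the flanks held them in 1.97% (adjusted p = 0.0879), and the others in 3.89% (adjusted p = 0.212, Fisher's exact test). The full CRE (TGACGTCA) was present in 6 windows and in 0 of 254 on either side, which allows up to 1.18% (adjusted p = 0.0903, exact McNemar test).

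Motifs of AP-1 and TEAD factors, which often act at enhancers, were rarer in the promoter windows than in the others. AP-1 letters (TGANTCA), bound by Fos and Jun proteins, were present in 7 promoter windows (2.76%) and 106 others (14.2%), an odds ratio of 0.171 (0.0785 to 0.373, adjusted p = 1.63e-07, Fisher's exact test), and in 2.19% of all promoters at these distances. TEAD letters (GGAATG) were present in 6.69% against 13.3% (odds ratio 0.469, adjusted p = 0.0142, exact test), and in 4.59% of all promoters. Among windows with a CpG ratio of at least 0.6 neither passed the threshold (odds ratio 0.278 with adjusted p = 0.216 for AP-1, and 0.780 with adjusted p = 0.867 for TEAD, exact tests). The NFY letters (CCAAT) stood at 14.6% in promoter windows, 10.7% in the others and 14.5% over all promoters, and did not differ past the threshold (adjusted p = 0.216, exact test). The letters for NRF1 (GCGCATGC), YY1 (AAGATGG), the E-box (CACGTG), the TATA box (TATAAA), poly-A (AAAAAAAA) and RFX (GTTGCNNNG) were present in 1, 5, 7, 4, 10 and 16 promoter windows and passed neither the test against the others nor that against both flanks. Of the promoter windows 71 (28.0%, 22.8 to 33.8) held neither Runx, ETS nor GC box letters.

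Within the promoter windows the Runx motif did not differ past the threshold in any of 4 splits. It was present in 53.6% of the upstream and 54.9% of the downstream windows (odds ratio 0.946, 0.546 to 1.64), in 55.3% of the 85 best ranked, 57.6% of the next 85 and 48.8% of the last 84 (best against last, odds ratio 1.30, 0.708 to 2.38), and in 53.2% of those in the IgG-named list against 13 of the 21 absent from it (odds ratio 0.700, 0.280 to 1.75). All 4 adjusted p were 0.889 (Fisher's exact test). On windows with TSSs on 1 strand and matches on 1 strand only, the letters as written above lay on the strand of the gene in 66 of 109 cases (60.6%, p = 0.0346, exact binomial test, two-sided, against equal shares). Over all promoters at a sample of these distances the share was 53.8% of matches, already above equal shares. That share counts matches and the first counts windows, so they differ in unit. A difference from that background was not tested.

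Genes of basic cell functions were counted among the promoter windows by 17 lists. Of 22225 GENCODE gene symbols, 236 (1.06%) matched by name a gene with a deposited TSS within 500 bp of a window. The rest of the 273 genes with such a TSS had deposited names without a match. They are missing from this share and from the list counts. List counts are given beside this share, with no test. Genes of the mitochondrial ribosome had 4 of 77 (5.19%), namely Mrps27 (rank 293), Mrpl18 (rank 497), Mrpl52 (rank 807) and Mrpl1 (rank 914). The respiratory chain had 3 of 93 (3.23%), with Ndufs7 (rank 44), Ndufb7 (rank 463) and Cox5a (rank 534). Ribosomal proteins had 4 of 134 (2.99%), with Rpl18, 78 bp upstream at rank 94, and Rps12, Rpl27 and Rps9 at ranks 635 to 763. RNA polymerases and general transcription factors had 3 of 103 (2.91%). These were Polr2j, a subunit of RNA polymerase II (76 bp upstream, rank 49), Gtf2a2, of the factor TFIIA (106 bp downstream, rank 55), and Med8, of the Mediator complex (rank 533). Translation factors had 2 of 67, at Eif3g (57 bp upstream, rank 59) and Eif4a2 (162 bp upstream, rank 86). Gspt1, a factor of translation termination (rank 50), had a window but was not counted by that list. Splicing genes had 2 of 112, Prpf18 (85 bp upstream, rank 125) and Sf3a2 (rank 840). Zinc finger genes had 6 of 429 (1.40%), near the share over all genes, with Zfp623 (rank 85), Zfp408 (rank 240) and Zfp672 (rank 325) ahead of Zscan12, Zfp142 and Zfp688.

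Genes of the cell cycle had 2 of 94 (2.13%), at Anapc11, a subunit of the ligase that drives mitotic exit (66 bp downstream, rank 461), and Cdk4, the kinase of the G1 phase (rank 759). The Cdk4 window lay 230.0 bp upstream and held 2 Runx matches. The lists named for cartilage and its regulators each had 1 gene with a window, a count too small to set against the share over all genes. For skeletal transcription factors this was Runx1 (1 of 40), and with a limit of 1000 bp there were 2. Of cartilage and bone matrix genes it was Loxl1, 6 bp upstream (1 of 39, 2.56%). The TGF-beta pathway had Ltbp1, which holds latent TGF-beta in the matrix (1 of 33, 3.03%). Its window lay 149 bp upstream at rank 466 with 2 Runx matches, but with GENCODE starts the list had 0. AP-1 had Fos, 46 bp downstream at rank 627 (1 of 15, 6.67%). The windows at Anapc11, Runx1, Loxl1 and Fos held no Runx match. No gene with a window was on the lists of collagens (0 of 44), DNA repair (0 of 69), the proteasome (0 of 45), core histones (0 of 76) and olfactory receptors (0 of 1113), which allows up to 6.82%, 4.35%, 6.67%, 3.95% and 0.270%. The DNA repair list did not include Alkbh3 or the nuclease gene Fen1 (268 bp upstream, rank 640), which both had windows. Its 0 therefore holds only for the listed genes. That list had 1 gene with GENCODE starts and 1 in the IgG-named list. As the peak list held only its 1000 highest windows, weaker peaks at these promoters cannot be seen. Of the 30 genes named by the lists, 12 (40.0%) had the Runx motif in the window and 9 (30.0%) the ETS letters. Polr2j, Eif3g, Zfp623 and Mrpl52 had both. Over all promoter windows the shares were 53.9% for Runx and 16.5% for ETS, and the differences were not tested.

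The windows were spread over 20 chromosomes. Chromosome X held 1, at Hdx, or 0.107 per 100 protein-coding genes, against an autosome median of 1.34 and a range from 0.525 on chromosome 14 to 1.82 on chromosome 10.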

How the data were processed

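ChIP-seq peak windows of 1 RUNX3-FLAG library were analysed. According to the study's methods and the labels, the authors aligned reads with bowtie to mm9 and called peaks with CisGenome against input, keeping peaks by their P value and then by false discovery rate. The deposited tables gave ranks, positions and distances in bp, with no counts or heights. Start and end differed by 100, so windows were read as 101 bp, counted from 0 in the files and from 1 here. The control of the IgG-named list was not stated.

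Distances were the deposited ones from the window centre. Sequence came from the NCBIM37 genome, which is mm9, and background promoters from GENCODE for the same build. Motifs were sought on both strands. Shares have Wilson 95% intervals, which cover counting error only. Groups of windows were compared by two-sided Fisher's exact tests and windows with flanks by exact McNemar tests, with Benjamini-Hochberg adjustment within each family. Neighbouring windows and genes are not independent. Windows of both lists were paired one to one by closest centre. Members, gene lists and motifs were chosen with earlier results of these data known. Genes were named at the 12 best ranked members, the 6 best bidirectional ones, members on the lists, genes with at least 2 members and the 3 windows on each side of the limit, and any others after their values were seen. Some items that the rule names are not reported here. Sequences were taken from the best ranked windows outside exons, and the windows with Runx and ETS letters or with ETS letters alone were added after seeing the data. Alternatives were other distance limits, start sites, lists, ranks, overlaps, flanks, window widths and motif letters, and a CpG limit added later. The scripts were first tested on simulated data. The tools used were samtools 1.23.1 with pysam 0.24.0 for sequence, scipy 1.17.1 for tests, pandas 2.3.3 with numpy 2.4.6 for tables and matplotlib 3.10.9 for plots, run in Python 3.11.15.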

Additional observations from a re-analysis of the deposited data

How the results depend on the processing

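Of 72 alternative values over 16 results, 58 kept the direction and the side of the threshold or, for a share or count, stayed within the interval or limit of the main value. The share of promoter windows was 21.5% with a limit of 250 bp and 28.3% with 1000 bp, by construction. The upstream share was 59.9% with GENCODE starts and 78.2% in the third of the list with the best ranks. Requiring identical windows turned the direction for presence in the IgG-named list (odds ratio 0.932), which was not past the threshold in either case. With flanks at 200 bp, 1 motif beside Runx exceeded both sides, ETS, in place of 3 (ETS, GC box and short CRE).

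Restricting both groups to a CpG ratio of at least 0.6, added after the data were seen, left fewer windows. The odds ratio then became 0.673 for Runx, 1.67 for the GC box, 0.278 for AP-1, 0.780 for TEAD and 0.663 for the Runx forms without CpG, all no longer past the threshold, and turned to 0.809 for the forms with CpG. TEAD also lost the threshold at 250 bp (0.508) and in the third of the list with the best ranks (0.607). The cause was not tested. The strand share of the Runx letters was 76.3% in the third with the best ranks (29 of 38, p = 0.00166, exact binomial test against equal shares). This subset was not planned for the strand share. Neither a difference from the 53.8% of matches over all promoters nor one from the other windows was tested. Of 51 values for single gene lists, 47 stayed within 1.5 times the main count, and the others were DNA repair (1 with GENCODE starts and 1 in the IgG-named list, in place of 0), the TGF-beta pathway (0 with GENCODE starts, in place of 1) and skeletal transcription factors (2 at 1000 bp, in place of 1). No paired analysis was possible because a single library was made per condition, and there were no replicates to leave out. Depth was unknown, and lists that end at 1000 windows limit every count.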
